A study of Mus musculus with 24 samples.

Results

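The genes followed here in mouse precursor B-cell leukaemias belong to antibody-secreting cells and to the stress response of the endoplasmic reticulum (ER): Xbp1, Prdm1, Jchain, Mzb1, Creld2, Fkbp11, Hspa5, Hsp90b1, Sdf2l1 and Manf. They were taken by gene symbol, with the probe set of the largest standard deviation (SD) standing for each gene. Of these 10 genes, 9 had a probe set under their symbol, out of 17097 genes tested, and together they had 16 of the 45141 probe sets. No probe set carried the symbol Mzb1, so it has no value here. Xbp1 had 4 probe sets, Fkbp11 had 3, Hspa5 and Hsp90b1 had 2 each, and the other members had 1 each.

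The study hybridised RNA of 24 samples to arrays. BKO408 is a single line of acute lymphoblastic leukaemia of B-cell precursors (preB-ALL) that arose in Blnk KO mice. It was grown with IL-7 and measured after transduction with a Cebpb LAP retrovirus (BKO408 LAP, n = 4) and without it (BKO408, n = 4). LAP is the form of C/EBPβ, a transcription factor, that activates its targets, and Blnk encodes an adaptor of pre-B-cell receptor signalling. The tumours were LAP B-ALL and LAP preB-ALL of Cebpb LAP transgenic mice (n = 4 each), LAP/Blnk preB-ALL of Blnk KO mice with the LAP transgene (n = 3), and Blnk preB-ALL of Blnk KO mice (n = 5). All BKO408 arrays, LAP/Blnk preB-ALL and Blnk preB-ALL therefore shared the loss of Blnk, and no normal B cells were analysed here. The promoter of the transgene, an empty-vector control, the tissue sampled and the age of the animals are not stated in the labels. Nor is it stated whether samples of a group were separate cultures or animals, so the p-values reflect only the spread between samples, which may be technical.

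Every value is a log ratio, taken as log2, to a median taken over the 8 cell-line arrays or over the 16 tumours. A value of 0 is therefore the middle of that set and not absence, levels of different genes cannot be compared, and cells and tumours cannot be set against each other directly. Because the samples are bulk RNA, fewer cells of a type and less RNA per cell cannot be told apart.

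A B cell that turns into an antibody-secreting plasma cell silences its B-cell programme through Blimp-1, the repressor encoded by Prdm1, and enlarges its secretory machinery through XBP1. XBP1 is also an arm of the unfolded protein response: the ER sensor IRE1 splices Xbp1 mRNA when unfolded proteins accumulate, and the spliced form, together with ATF6, switches on ER chaperone genes. Many of those genes carry an ER stress response element (ERSE), a CCAAT box and a CCACG box at a fixed distance, next to their start sites. The Jchain product links the units of secreted IgM and IgA.

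The ERSE was found in 3 of the 8 members whose promoters were in the RefSeq table (GRCm38.p6, 300 bases each, 250 before and 50 after the start), namely Hspa5, Hsp90b1 and Creld2. The letters searched, on both strands, were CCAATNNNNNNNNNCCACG, which occurred in 39 of 32851 promoters of the same length (0.119%). The 250 bases before the start of these genes are shown because Hspa5, Hsp90b1 and Creld2 also varied together over the tumours, as did other pairs of members, and that of Sdf2l1 because it held the CCACG box without the full element. Capitals mark the CCAAT and CCACG boxes of the ERSE, which read ATTGG and CGTGG where the element lies on the other strand. The Hspa5 window is chr2:34771840-34772089 on the plus strand, that of Hsp90b1 chr10:86705445-86705694 on the minus strand, that of Creld2 chr15:88819396-88819645 on the plus strand and that of Sdf2l1 chr16:17132384-17132633 on the minus strand.
Hspa5: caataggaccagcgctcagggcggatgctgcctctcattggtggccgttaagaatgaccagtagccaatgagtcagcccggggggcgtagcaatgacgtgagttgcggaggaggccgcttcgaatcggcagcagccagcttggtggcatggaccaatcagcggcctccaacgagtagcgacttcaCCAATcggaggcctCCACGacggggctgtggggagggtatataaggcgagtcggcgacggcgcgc
Hsp90b1: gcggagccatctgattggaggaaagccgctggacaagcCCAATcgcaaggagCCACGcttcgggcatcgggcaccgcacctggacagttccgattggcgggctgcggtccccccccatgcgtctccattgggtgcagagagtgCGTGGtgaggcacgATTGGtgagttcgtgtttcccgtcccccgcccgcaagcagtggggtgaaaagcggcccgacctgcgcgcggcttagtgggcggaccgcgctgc
Creld2: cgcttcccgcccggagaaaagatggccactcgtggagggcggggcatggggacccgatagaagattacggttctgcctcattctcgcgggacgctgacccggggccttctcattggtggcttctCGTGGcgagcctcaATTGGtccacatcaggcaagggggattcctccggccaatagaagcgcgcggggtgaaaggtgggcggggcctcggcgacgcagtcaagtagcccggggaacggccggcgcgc
Sdf2l1: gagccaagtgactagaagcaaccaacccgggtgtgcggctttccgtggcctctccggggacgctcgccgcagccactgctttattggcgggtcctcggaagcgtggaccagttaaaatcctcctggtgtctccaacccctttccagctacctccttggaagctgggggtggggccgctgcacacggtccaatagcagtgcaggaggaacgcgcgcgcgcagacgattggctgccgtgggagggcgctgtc

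Counted from the first base shown, the element lay at bases 186 to 204 in Hspa5 and, on the other strand, at bases 125 to 143 in Creld2. Hsp90b1 had 2 elements, at bases 39 to 57 and, on the other strand, at bases 144 to 162. The CCACG box alone, which is part of every ERSE, was found for 6 of the 8 members and in 32.8% of all promoters. The 8 members had 9 promoters, since Fkbp11 had 2, of which 1 held the box, and Sdf2l1 had 3 boxes. The ERSE-II (ATTGG and CCACG with 1 base between them) and the XBP1-binding core TGACGTGG were found for 0 of the 8 members, against 0.0365% and 0.676% of all promoters. A C/EBP half-palindrome pair, TTGCNNAA, was found for 2 of the 8 members, Xbp1 and Jchain, and in 10.8% of all promoters. These matches describe letters in a window, and say nothing about whether a factor was bound there.

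The arrays labelled BKO408 LAP were checked on Cebpb first, with log2 ratios of 0.11, 0.24, 0.03 and -0.01 in BKO408 LAP cells, against -0.14, 0.01, -0.05 and -0.06 in BKO408 cells. The groups overlapped, and the difference of 0.15 (SE 0.0553) did not pass (adjusted p = 0.0855 by limma). Whether this probe set reads the transcript of the retrovirus is not stated, so the transduction rests on the labels. In BKO408 LAP cells, 6 of the 9 measured members were higher than in BKO408 cells: Creld2, Fkbp11, Xbp1, Manf, Sdf2l1 and Hspa5. The rises were small, between 0.12 and 0.23 on the log2 scale. The median difference of the 9 members was 0.13, against -0.01 for all genes. By the same test (limma, adjusted p under 0.05 over all 17097 genes) 22.3% of all genes differed, 10.5% were higher and 11.8% were lower. In 5 of the 6 risen members every BKO408 LAP array was above every BKO408 array, which held for 12.3% of all genes.

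**Figure D1:**
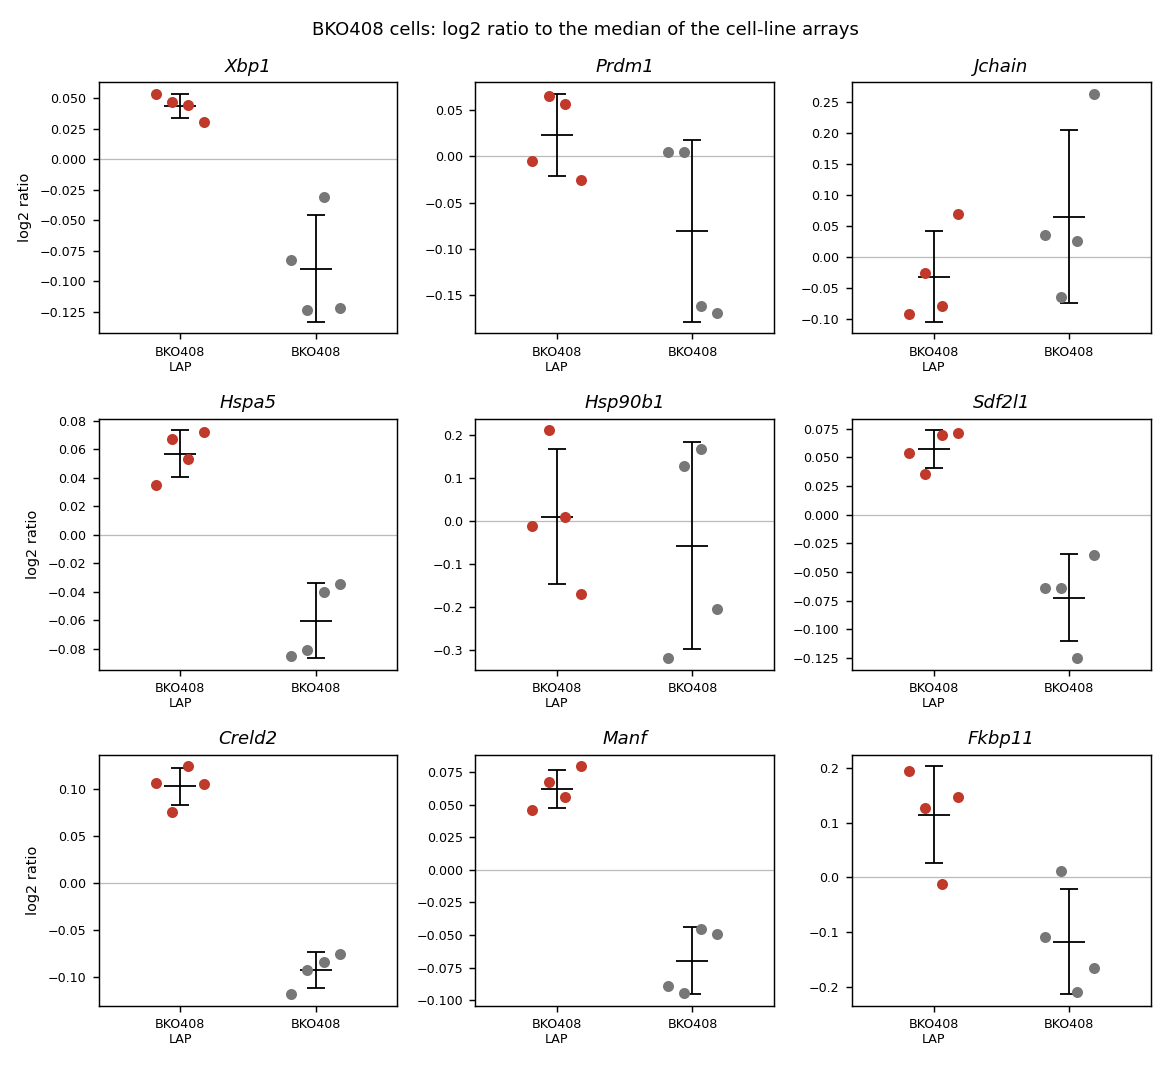
Log2 ratio (y axis, relative to the cell-line median) of each measured gene in BKO408 LAP (left, n = 4) and BKO408 cells (right, n = 4). Points are arrays and bars the mean ± SD, and each panel has its own y axis. For Creld2, Xbp1, Manf, Sdf2l1 and Hspa5 all LAP points lie above all BKO408 points.

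Among the transcription factors, Xbp1 had log2 ratios of 0.05, 0.05, 0.04 and 0.03 in BKO408 LAP cells, against -0.08, -0.12, -0.03 and -0.12 in BKO408 cells. The groups did not overlap, and Xbp1 was higher by 0.13 (SE 0.0288, adjusted p = 0.00854 by limma). The 4 probe sets of Xbp1 disagreed: the differences of the other 3 were 0.107, -0.0016 and 0.0416, and with the mean of all 4 the difference was 0.0702 and missed the threshold (adjusted p = 0.06 by limma). Array probe sets of this kind do not separate spliced from unspliced Xbp1 mRNA, so nothing here measures the splicing step. Prdm1, the Blimp-1 gene, had log2 ratios of -0.0045, 0.07, 0.06 and -0.03 in BKO408 LAP cells, against 0.0045, 0.005, -0.16 and -0.17 in BKO408 cells. The groups overlapped, and the difference of 0.10 did not pass the test (95% interval -0.01 to 0.21, adjusted p = 0.176 by limma).

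Hspa5 encodes BiP, the main ER chaperone of the HSP70 family. Its log2 ratios were 0.04, 0.07, 0.05 and 0.07 in BKO408 LAP cells, against -0.09, -0.08, -0.04 and -0.04 in BKO408 cells, a rise of 0.12 (SE 0.0257, adjusted p = 0.00937 by limma). The groups did not overlap, and the second probe set of Hspa5 differed by 0.108. Hsp90b1 encodes GRP94, the HSP90 of the ER. It had -0.01, 0.21, 0.01 and -0.17 in BKO408 LAP cells, against -0.32, 0.13, 0.17 and -0.20 in BKO408 cells, and the difference of 0.07 (SE 0.118) did not pass (adjusted p = 0.749 by limma). Its other probe set was steadier, at 0.0401 ± 0.0279 in BKO408 LAP cells and -0.0496 ± 0.0249 in BKO408 cells (SD, n = 4 each). With the second probe set in its place the difference was 0.0897 and passed (adjusted p = 0.0455 by limma).

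Among the cofactors, Creld2, an ER-resident protein made under ER stress, had 0.11, 0.08, 0.12 and 0.10 in BKO408 LAP cells, against -0.12, -0.09, -0.08 and -0.08 in BKO408 cells. The gap between the groups was wider than the range within either, and the rise was 0.20 (SE 0.025, adjusted p = 0.000442 by limma). Manf, a small ER protein that binds BiP and can be secreted, had 0.05, 0.07, 0.06 and 0.08 in BKO408 LAP cells, against -0.09, -0.09, -0.05 and -0.05 in BKO408 cells, a rise of 0.13 (SE 0.0254, adjusted p = 0.00477 by limma). Sdf2l1, which works with the ER cochaperones of the DnaJ family, had 0.05, 0.04, 0.07 and 0.07 in BKO408 LAP cells, against -0.06, -0.06, -0.12 and -0.04 in BKO408 cells, a rise of 0.13 (SE 0.0279, adjusted p = 0.00848 by limma). Neither Manf nor Sdf2l1 overlapped between the groups.

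Fkbp11, a prolyl isomerase of the ER that is abundant in secretory cells, had 0.20, 0.13, -0.01 and 0.15 in BKO408 LAP cells, against -0.11, 0.01, -0.21 and -0.17 in BKO408 cells. BKO408 LAP array 3 lay within the BKO408 range. The rise of 0.23 (SE 0.0573, adjusted p = 0.0168 by limma) was the largest of the members. Its other 2 probe sets differed by -0.00232 and -0.0493, the mean of all 3 by 0.0603 (adjusted p = 0.281 by limma), and without BKO408 LAP array 1 the difference was 0.205 (adjusted p = 0.0502 by limma). Jchain had -0.09, -0.03, -0.08 and 0.07 in BKO408 LAP cells, against 0.03, -0.06, 0.03 and 0.26 in BKO408 cells. The groups overlapped and the difference of -0.10 did not pass (adjusted p = 0.364 by limma).

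The wider secretory and stress pathways moved in both directions in these cells. The 11 lists named 176 genes, of which 159 were measured, and some genes stand in more than 1 list. Some lists include members, and by the same test 10.5% of all genes rose and 11.8% fell. Of the 13 measured sensors and transcription factors of the unfolded protein response, 6 rose and 1 fell, with a median difference of 0.09. The 6 include the member Xbp1. Ddit3, which encodes CHOP, rose by 0.63 (SE 0.0252) and Ern1, which encodes IRE1α, by 0.55 (SE 0.0593), while Eif2ak3, which encodes the sensor PERK, fell by 0.39 on the log2 scale (SE 0.0246). Another Ern1 probe set differed by -0.0474. Of the 20 ER chaperones and cochaperones, 7 rose and 2 fell (median 0.07). The 7 include the members Hspa5, Sdf2l1, Manf, Creld2 and Fkbp11, already described above. Besides members, Fkbp7, an ER prolyl isomerase, rose by 0.36, whereas Dnajb9, an ER cochaperone of the DnaJ family, fell by 0.27 and Cnpy2 by 0.25, and Cnpy2 differed by only -0.0456 with another probe set, which did not pass.

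ER-associated degradation had 5 risen and 2 fallen genes of 14 measured (median 0.06). Sel1l, a subunit of the ubiquitin ligase that clears misfolded ER proteins, rose by 0.67 and Edem1, which hands glycoproteins to it, by 0.46. Ube2j1, a ubiquitin-conjugating enzyme of the ER membrane, fell by 0.18 and Herpud1 by 0.12. Among 14 genes of disulphide formation 3 rose and 3 fell (median -0.04). The oxidase gene Ero1a rose by 0.98 and Erp44 by 0.19, whereas the second oxidase gene, Ero1b, fell by 0.40 and Erp29 by 0.13. Erp44 missed the threshold with the mean of its probe sets (0.108, adjusted p = 0.0546 by limma), and Erp29 without BKO408 LAP array 2 (-0.117).

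**Figure D2:**
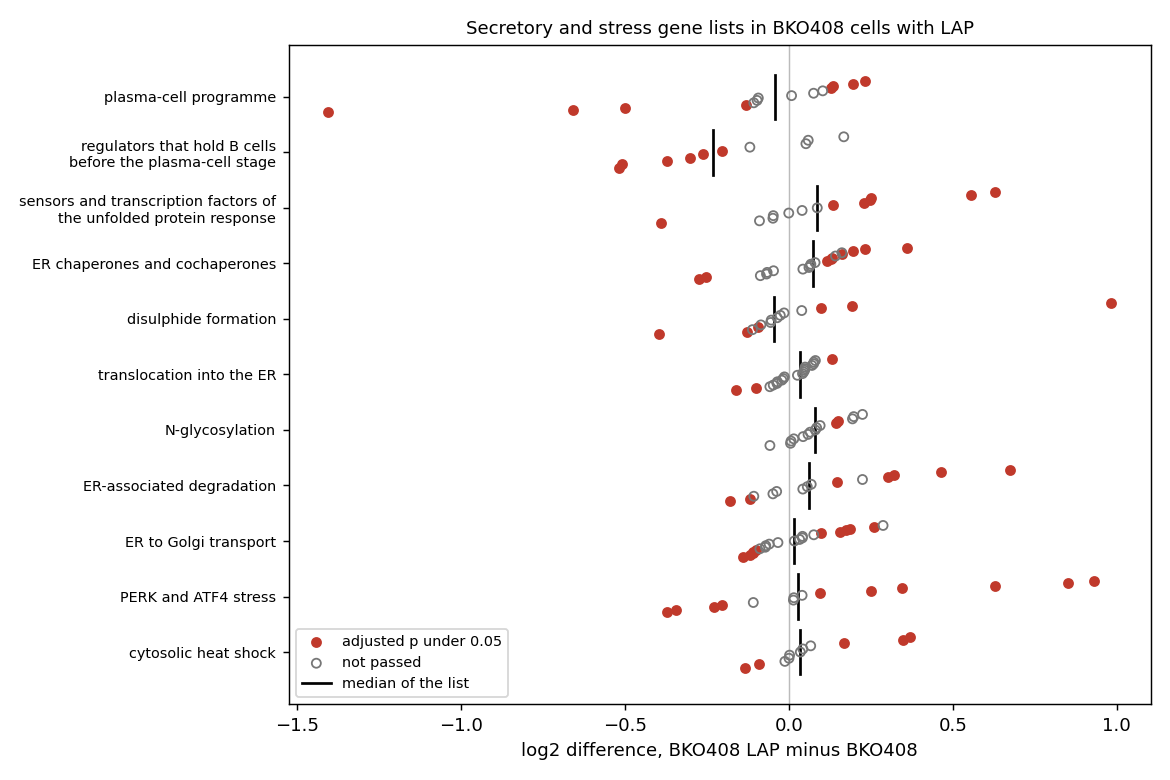
Log2 difference of BKO408 LAP minus BKO408 cells (x axis) for every measured gene of 11 lists (rows). Filled points passed the adjusted threshold, open points did not, and black bars mark each list's median, from -0.23 for the regulators that hold B cells before the plasma-cell stage to 0.09 for the unfolded protein response.

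The PERK and ATF4 branch had 6 risen and 4 fallen genes of 14 (median 0.03). Trib3, a pseudokinase induced by ATF4 and CHOP, rose by 0.93 and Ppp1r15a, which encodes the phosphatase subunit GADD34, by 0.85. Chac1, a glutathione-degrading enzyme, fell by 0.37 and Shmt2, a mitochondrial enzyme of serine metabolism, by 0.35. Of 21 genes of ER to Golgi transport 5 rose and 5 fell (median 0.02). Mcfd2, a cargo receptor subunit, rose by 0.26 and Golgb1 by 0.19, with -0.132 from another Golgb1 probe set, whereas the KDEL receptor genes Kdelr1 and Kdelr2 fell by 0.14 and 0.12.

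Of 20 genes that bring proteins into the ER, 1 rose and 2 fell (median 0.03). Spcs2 of the signal peptidase rose by 0.13. Sec63 fell by 0.16, with 0.022 from another probe set, and Sec61b, a subunit of the translocon, by 0.10. The Sec61b call was lost without BKO408 LAP array 1 (-0.0989) or array 2 (-0.0883). Of 15 N-glycosylation genes 2 rose and 0 fell (median 0.08), with Mogs, which trims glucose from new glycans, at 0.15 and Rpn1, of the oligosaccharyltransferase, at 0.14. Among 11 cytosolic heat shock genes 3 rose and 2 fell (median 0.04). Hspa8 differed by 0.37 with its chosen probe set and by -0.0877 with the mean of its probe sets (both passed), Hspa1b rose by 0.35, and Hsph1 and Dnaja1 fell by 0.13 and 0.09, where the Dnaja1 call was lost when any of 7 of the 8 arrays was left out (-0.0966 to -0.082) or with the mean of its probe sets.

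The genes that mark the plasma-cell state itself did not move one way. Of 14 measured genes of the plasma-cell programme 4 rose and 4 fell (median -0.04), where 10.5% of all genes rose and 11.8% fell. The 4 that rose include the members Fkbp11, Creld2 and Xbp1, already described above. Of these, Fkbp11 and Xbp1 missed the threshold with the mean of their probe sets. Irf4, a transcription factor needed for plasma cells and also active in pre-B cells, fell by 1.41 (SE 0.0281, adjusted p = 3.16e-09 by limma). Eaf2, an elongation factor, fell by 0.66, a call lost with a variance trend (adjusted p = 0.202 by limma). Of 10 regulators that hold B cells before the plasma-cell stage 0 rose and 6 fell (median -0.23), where 11.8% of all genes fell. Id3, an inhibitor of E proteins, fell by 0.52 and Bach2, a repressor of Prdm1, by 0.51. The groups are 1 line with 4 arrays each, and no list was tested as a set.

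In the tumours, 0 of the 9 measured members passed the test in any of the 6 pairs of groups. The lowest adjusted p of a pair was 0.175 and that of limma's F test over the 4 groups 0.375. Before adjustment, 2 differences had a p under 0.05: Prdm1 in LAP B-ALL against LAP/Blnk preB-ALL (22.0% of all genes did so), and Sdf2l1 in LAP B-ALL against Blnk preB-ALL (21.2% of all genes). The share of all genes that passed was 3.52% between LAP B-ALL and LAP/Blnk preB-ALL, 2.37% between LAP/Blnk preB-ALL and LAP preB-ALL, and 1.45% between LAP B-ALL and Blnk preB-ALL. It was 0.0819% between LAP preB-ALL and Blnk preB-ALL and 0.0175% between LAP/Blnk preB-ALL and Blnk preB-ALL. Between LAP B-ALL and LAP preB-ALL limma called 0 genes (0.0%), with 1886 genes (11.0%) at an unadjusted p under 0.05. The F test called 2.65% of all genes. Read against these rates, 0 of 9 is no result about the members.

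Tumours that share a label varied, and 1 stood apart on Cebpb. Whether the Cebpb probe set reads the transgene is not stated. Cebpb in LAP B-ALL 4 was at -3.11, within the Blnk preB-ALL range of -4.50 to -1.94, while the other LAP-carrying tumours lay between -1.41 and 0.90. The Blnk probe set did not separate the genotypes (0.42 to 1.23 in LAP/Blnk preB-ALL and -0.68 to 0.94 in Blnk preB-ALL), and whether it lies in the deleted part is not stated. Erythroid markers (7 measured) had medians of 4.85, 4.87, 5.42 and 1.23 in LAP B-ALL 1 to 4 and 4.91 in LAP preB-ALL 4, against -0.68 to 0.48 in the other 11 tumours. Granulocyte markers (11 measured) had medians of 1.60 to 2.83 in LAP B-ALL, 2.60 in LAP preB-ALL 4 and 3.40 in Blnk preB-ALL 5, against -0.71 to 0.84 elsewhere. Medians of 9 B-lineage markers ran from -0.89 to 0.54 over all tumours. Marker levels, and so any absence, cannot be read from centred ratios.

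**Figure D3:**
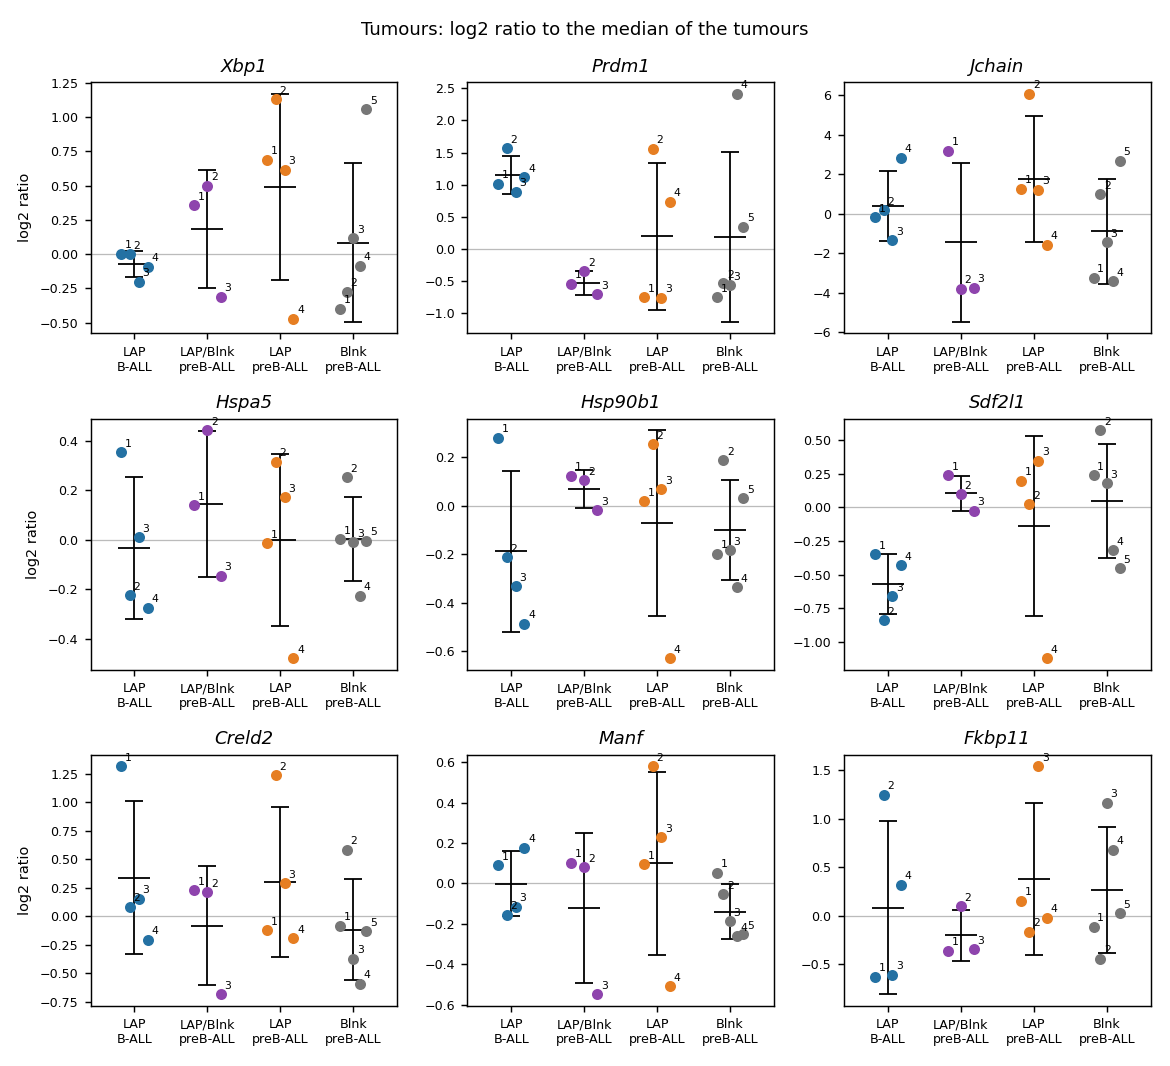
Log2 ratio (y axis, to the median of the 16 tumours) of each measured gene in LAP B-ALL (n = 4), LAP/Blnk preB-ALL (n = 3), LAP preB-ALL (n = 4) and Blnk preB-ALL (n = 5). Points are tumours, numbered as in the labels, and bars the mean ± SD. Each panel has its own y axis, and Jchain spans 9.87 log2 units.

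Prdm1 was high in every LAP B-ALL, with log2 ratios of 1.01, 1.57, 0.89 and 1.12. It was at -0.55, -0.35 and -0.71 in LAP/Blnk preB-ALL, at -0.76, 1.56, -0.76 and 0.73 in LAP preB-ALL and -0.75, -0.54, -0.56, 2.42 and 0.35 in Blnk preB-ALL. LAP B-ALL and LAP/Blnk preB-ALL did not overlap, which held in this direction for 10.9% of all genes, whereas both other groups held a mix of high and low tumours. LAP B-ALL exceeded LAP/Blnk preB-ALL by 1.68 (95% interval 0.19 to 3.17, adjusted p = 0.175 by limma), and without LAP B-ALL 4 by 1.69 (adjusted p = 0.179). The fit pools the spread of all 16 tumours. On these 7 tumours alone the difference was the same and the adjusted p 0.00928 by limma, a fit in which 4.76% of all genes passed. LAP B-ALL was above LAP preB-ALL by 0.95 (95% interval -0.43 to 2.33) and above Blnk preB-ALL by 0.97 (95% interval -0.35 to 2.27), and neither passed.

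Sdf2l1 ran the other way. It was at -0.35, -0.84, -0.66 and -0.43 in LAP B-ALL, at 0.24, 0.10 and -0.03 in LAP/Blnk preB-ALL, at 0.20, 0.03, 0.35 and -1.12 in LAP preB-ALL and 0.24, 0.58, 0.18, -0.32 and -0.45 in Blnk preB-ALL. All LAP B-ALL were below all LAP/Blnk preB-ALL, which held for 11.3% of all genes, and LAP preB-ALL 4 was the lowest tumour. The difference of LAP B-ALL from LAP/Blnk preB-ALL was -0.67 (95% interval -1.35 to 0.00106, adjusted p = 0.227 by limma) and that from Blnk preB-ALL -0.61 (95% interval -1.21 to -0.02, adjusted p = 0.22 by limma). Without LAP B-ALL 4 these were -0.72 (adjusted p = 0.205) and -0.66 (adjusted p = 0.193). With weights for the quality of each array, both passed (-0.70, adjusted p = 0.0461, and -0.67, adjusted p = 0.0451, by limma), as did 23.8% and 21.2% of all genes. On LAP B-ALL and LAP/Blnk preB-ALL alone the first passed too (-0.67, adjusted p = 0.0499), with 4.76% of all genes.

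**Figure D4:**
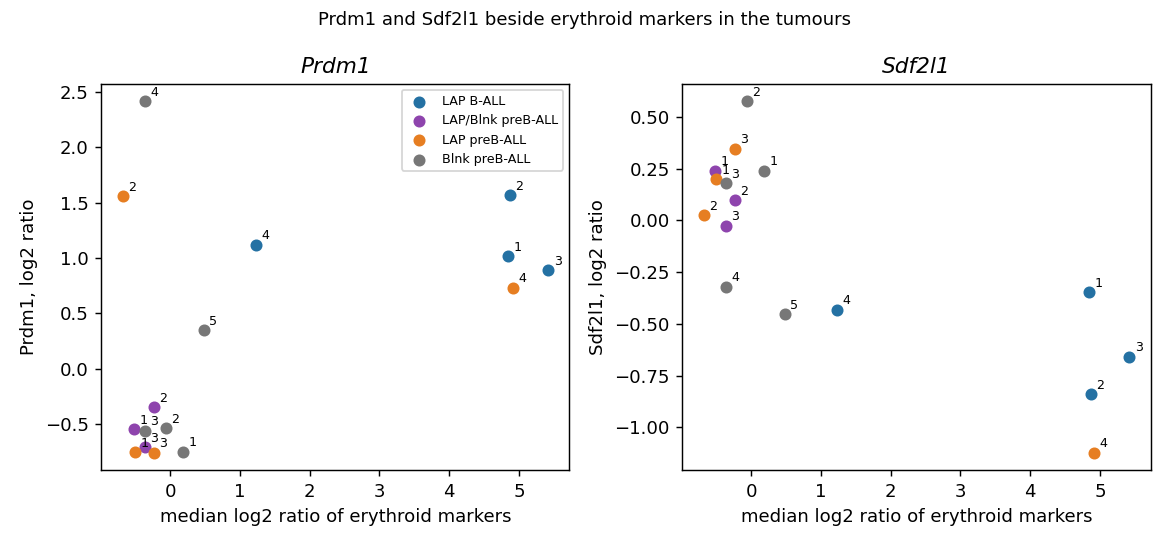
Log2 ratio of Prdm1 (left) and Sdf2l1 (right) in each of the 16 tumours (y axis) beside the median log2 ratio of 7 erythroid markers in the same tumour (x axis), with numbers as in the labels. The 5 tumours with an erythroid median above 1 are LAP B-ALL 1 to 4 and LAP preB-ALL 4, with Prdm1 from 0.73 to 1.57 and Sdf2l1 from -1.12 to -0.35.

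The same 5 tumours, LAP B-ALL 1 to 4 and LAP preB-ALL 4, carried the high erythroid medians of 1.23 to 5.42. Prdm1 was also high in 2 tumours with erythroid medians near 0 or below, Blnk preB-ALL 4 (2.42, erythroid median -0.36) and LAP preB-ALL 2 (1.56, erythroid median -0.68). Markers of monocytes and macrophages (11 measured) and of T cells (8 measured) also differed between LAP B-ALL and LAP/Blnk preB-ALL. The monocyte and macrophage medians ran from 0.03 to 1.56 in LAP B-ALL, against -0.77 to -0.67 in LAP/Blnk preB-ALL. The T-cell medians ran from 0.03 to 1.75 in LAP B-ALL, against -0.53 to -0.12 in LAP/Blnk preB-ALL. LAP preB-ALL 2, where Prdm1 was high, had medians of 0.80 for monocytes and macrophages and 1.39 for T cells. Blnk preB-ALL 4, where Prdm1 was highest, had medians of -0.54 for monocytes and macrophages and -0.31 for T cells. The part of erythroid, granulocytic, monocytic or T cells in these differences was not tested.

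Jchain varied more than almost any other gene. Its SD over the 16 tumours was 2.87, at the 99.8th percentile of all genes, and its lowest and highest tumours were 936-fold apart. It was at -0.18, 0.18, -1.35 and 2.84 in LAP B-ALL, at 3.19, -3.79 and -3.74 in LAP/Blnk preB-ALL, at 1.28, 6.08, 1.21 and -1.56 in LAP preB-ALL and -3.24, 0.99, -1.45, -3.41 and 2.69 in Blnk preB-ALL. High and low tumours stood in every group, and the spread within groups (SD 2.89) was as wide as that over all tumours. The largest difference, LAP/Blnk preB-ALL minus LAP preB-ALL, was -3.20 (95% interval -7.64 to 1.25, adjusted p = 0.438 by limma), so the arrays could not resolve differences of several log2 units for this gene. Without LAP preB-ALL 2 it was -1.76. LAP preB-ALL minus Blnk preB-ALL was 2.64 (95% interval -1.27 to 6.54), and 1.19 without LAP preB-ALL 2.

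LAP preB-ALL 2 had the highest Jchain of all tumours and, with the chosen probe set, the highest Xbp1. With 2 of the 4 Xbp1 probe sets it was lower than Blnk preB-ALL 5, at 0.33 and 0.87, against 1.21 and 1.17 in Blnk preB-ALL 5. Its 5 measured plasma-cell markers (Irf4, Tnfrsf17, Prdm1, Xbp1 and Jchain, with none for Sdc1 and Mzb1) had a median of 1.32, against -0.47 to 0.90 in the other 15 tumours. Prdm1, Xbp1 and Jchain are members, and Xbp1 and Jchain singled this tumour out, so the median is no separate evidence. The markers that are no members, Irf4 and Tnfrsf17, were at 1.32 and 0.90. Other genes of the plasma-cell programme list went both ways in this tumour, with Eaf2 at 4.59 and Cd93 at -5.55. Markers of plasmacytoid dendritic cells (9 measured) were high there, with a median of 1.78 against at most 0.49 elsewhere. The part of such cells in the values of this tumour was not tested.

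Xbp1 was at 0.0019, -0.0019, -0.20 and -0.09 in LAP B-ALL, at 0.36, 0.50 and -0.31 in LAP/Blnk preB-ALL, at 0.69, 1.13, 0.62 and -0.47 in LAP preB-ALL and -0.40, -0.27, 0.12, -0.08 and 1.06 in Blnk preB-ALL. The LAP B-ALL values were the tightest, and 3 of the 4 LAP preB-ALL lay above all LAP B-ALL. The differences were -0.56 for LAP B-ALL minus LAP preB-ALL (95% interval -1.30 to 0.17) and 0.41 for LAP preB-ALL minus Blnk preB-ALL (95% interval -0.29 to 1.10), and neither passed. With another Xbp1 probe set LAP preB-ALL minus Blnk preB-ALL was -0.231.

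The ER chaperones spread least. Hspa5 was at 0.35, -0.23, 0.01 and -0.27 in LAP B-ALL, at 0.14, 0.44 and -0.15 in LAP/Blnk preB-ALL, at -0.01, 0.32, 0.17 and -0.48 in LAP preB-ALL and 0.003, 0.25, -0.01, -0.23 and -0.003 in Blnk preB-ALL. Hsp90b1 was at 0.28, -0.21, -0.33 and -0.49 in LAP B-ALL, at 0.12, 0.11 and -0.02 in LAP/Blnk preB-ALL, at 0.02, 0.25, 0.07 and -0.63 in LAP preB-ALL and -0.20, 0.19, -0.18, -0.33 and 0.03 in Blnk preB-ALL. The SDs over the tumours were 0.253 and 0.267, against a median of 0.278 for all genes, and all groups overlapped for both. The 95% intervals of the 6 pairwise differences stayed between -0.615 and 0.582 for Hspa5 and between -0.705 and 0.597 for Hsp90b1.

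Creld2 was at 1.31, 0.08, 0.15 and -0.21 in LAP B-ALL, at 0.23, 0.21 and -0.69 in LAP/Blnk preB-ALL, at -0.12, 1.23, 0.29 and -0.19 in LAP preB-ALL and -0.08, 0.58, -0.37, -0.59 and -0.13 in Blnk preB-ALL. A single tumour in LAP B-ALL and a single one in LAP preB-ALL were far above the rest. Manf was at 0.09, -0.15, -0.12 and 0.18 in LAP B-ALL, at 0.10, 0.08 and -0.55 in LAP/Blnk preB-ALL, at 0.09, 0.58, 0.23 and -0.51 in LAP preB-ALL and 0.05, -0.05, -0.19, -0.26 and -0.25 in Blnk preB-ALL. Fkbp11 was at -0.63, 1.25, -0.61 and 0.32 in LAP B-ALL, at -0.36, 0.10 and -0.35 in LAP/Blnk preB-ALL, at 0.15, -0.17, 1.54 and -0.02 in LAP preB-ALL and -0.11, -0.45, 1.16, 0.68 and 0.02 in Blnk preB-ALL. For all of these 3 genes every pair of groups overlapped.

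The response to LAP was also compared between cells and tumours directly, as the difference LAP/Blnk preB-ALL minus Blnk preB-ALL less the difference BKO408 LAP minus BKO408, since both pairs lack Blnk. Here 0 of the 9 members passed (lowest adjusted p 0.465 by limma), against 1.05% of all genes. For Creld2 the difference was -0.16 with a 95% interval of -0.84 to 0.52, and for Fkbp11 it was -0.70 with an interval of -1.50 to 0.10. Both intervals contain 0 and also values larger in size than the rise in the cells. This fit gave cells and tumours 1 common spread. Its SE was 0.317 for Creld2 and 0.375 for Fkbp11. These are below the 0.396 and 0.489 of LAP/Blnk preB-ALL minus Blnk preB-ALL in the fit of the tumours. The intervals, the adjusted p and the share of all genes may therefore rest on too small a spread for the tumours.

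Of the 159 measured genes of the wider lists, 10 passed in at least 1 pair of tumour groups. The share of all genes that passed was 3.52% between LAP B-ALL and LAP/Blnk preB-ALL and 2.37% between LAP/Blnk preB-ALL and LAP preB-ALL. It was 1.45% between LAP B-ALL and Blnk preB-ALL and 0.0819% between LAP preB-ALL and Blnk preB-ALL. No list was tested as a set, so the count is no result about the lists. Every call named below was lost under at least 1 setting other than leaving out a tumour (adjusted p 0.0501 to 0.376 by limma). The exceptions were Psat1, Ganab and Syvn1 in LAP B-ALL against LAP/Blnk preB-ALL. Of these, Psat1 and Syvn1 lost the call when 1 tumour was left out, as given below. Ell2, an elongation factor that drives secretory immunoglobulin mRNA processing, was higher in LAP B-ALL than in LAP/Blnk preB-ALL by 3.14 (adjusted p = 0.0221 by limma) and than in Blnk preB-ALL by 2.63 (adjusted p = 0.0445 by limma). Its log2 ratios were 2.53, 1.62, 2.07 and 0.67 in LAP B-ALL, -1.15, -0.18 and -2.91 in LAP/Blnk preB-ALL, and -0.46, -2.13, -0.62, -0.81 and -0.50 in Blnk preB-ALL. The groups did not overlap, but the first call was lost without LAP B-ALL 1, 2 or 3 or LAP/Blnk preB-ALL 1 or 3 (2.39 to 3.27), and the second without any tumour other than LAP B-ALL 4 and Blnk preB-ALL 5 (2.32 to 2.74). Bach1, a haem-regulated repressor related to Bach2, fell by 1.12 and 1.33 in the same comparisons (adjusted p = 0.0415 and 0.0208 by limma), at -0.63, -0.55, -0.13 and -0.54 in LAP B-ALL, 0.66, 0.13 and 1.17 in LAP/Blnk preB-ALL and 0.19, 1.12, 1.28, 0.59 and 1.13 in Blnk preB-ALL. With another Bach1 probe set the differences were -0.603 and -0.742 and did not pass. The first call was lost without LAP B-ALL 1, 2 or 3 or LAP/Blnk preB-ALL 1 or 3 (-1.23 to -0.858), and the second without LAP B-ALL 1 or 2 or Blnk preB-ALL 2 (-1.30 to -1.26).

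Id3 fell by 2.77 in LAP preB-ALL against Blnk preB-ALL (adjusted p = 0.0398 by limma) and was higher by 2.45 in LAP/Blnk preB-ALL than in LAP preB-ALL (adjusted p = 0.0196 by limma). The first call was lost without LAP preB-ALL 1, 2 or 3 or Blnk preB-ALL 2, 3 or 5 (-2.78 to -2.37), and the second without any of the LAP/Blnk preB-ALL (2.37 to 2.59). Both comparisons share the LAP preB-ALL samples. In LAP B-ALL against Blnk preB-ALL, the ER isomerase gene Fkbp7 fell by 1.26 (adjusted p = 0.0404 by limma) and the ER peroxidase gene Prdx4 by 0.92 (adjusted p = 0.0488 by limma), and both calls were lost without any tumour other than LAP B-ALL 4 and Blnk preB-ALL 5 (-1.32 to -1.15 and -0.96 to -0.795). Ssr2, of the translocon-associated complex, fell by 0.54 in LAP/Blnk preB-ALL against LAP preB-ALL (adjusted p = 0.0481 by limma), a call lost without any of the 7 tumours (-0.636 to -0.391).

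The remaining 4 genes lie on chromosome 19. Ganab, which encodes glucosidase II alpha, was higher in LAP/Blnk preB-ALL than in LAP preB-ALL by 0.98 (adjusted p = 0.039 by limma) and lower in LAP B-ALL than in LAP/Blnk preB-ALL (log2 difference -1.43, adjusted p = 0.00475 by limma). Syvn1, the ubiquitin ligase partner of Sel1l, gave 1.39 and -1.29 in the same comparisons (adjusted p = 0.0154 and 0.0137 by limma). In LAP B-ALL against LAP/Blnk preB-ALL, Psat1, of serine synthesis, fell by 2.31 and the isomerase gene Fkbp2 by 1.17 (adjusted p = 0.0134 and 0.026 by limma). All 569 genes tested on chromosome 19 had a median difference of 0.31 in LAP/Blnk preB-ALL against LAP preB-ALL and of -0.30 in LAP B-ALL against LAP/Blnk preB-ALL, against -0.03 and -0.01 for the other autosomes. The part of that shift in these 4 genes was not tested. Leaving out 1 tumour ended the calls of Syvn1 (LAP/Blnk preB-ALL 1 or 3, 1.35 and -1.25), Psat1 (LAP/Blnk preB-ALL 3, -2.10), Fkbp2 (any LAP/Blnk preB-ALL, -1.26 to -1.06) and, in the first comparison only, Ganab (any of the 7, 0.872 to 1.08).

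Although no member passed between the tumour groups in the main fit, several members rose and fell together from tumour to tumour. Hspa5 and Hsp90b1 were closest, with Pearson's r = 0.876 and Spearman's rho = 0.865 over the 16 tumours (permutation test, adjusted p = 0.00072 and 0.0018 over 36 pairs). The raw p of r by this permutation test was 2e-05, close to the smallest that 100000 resamples can give. The relation held for deviations from the group means (r = 0.872) and without the 2 tumours farthest from the median of Hspa5 (r = 0.859). Creld2 followed Hspa5 with r = 0.715 and rho = 0.832 (permutation test, adjusted p = 0.0288 and 0.0027), within groups r = 0.867 and without the 2 farthest tumours r = 0.628. Creld2 and Manf gave r = 0.688 and rho = 0.662 (permutation test, adjusted p = 0.0336 and 0.0474), within groups r = 0.652 and without the 2 farthest r = 0.592. Creld2 with Hsp90b1 gave r = 0.644 and rho = 0.753 (permutation test, adjusted p = 0.0336 and 0.0133), within groups 0.821 and without the 2 farthest 0.457.

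**Figure D5:**
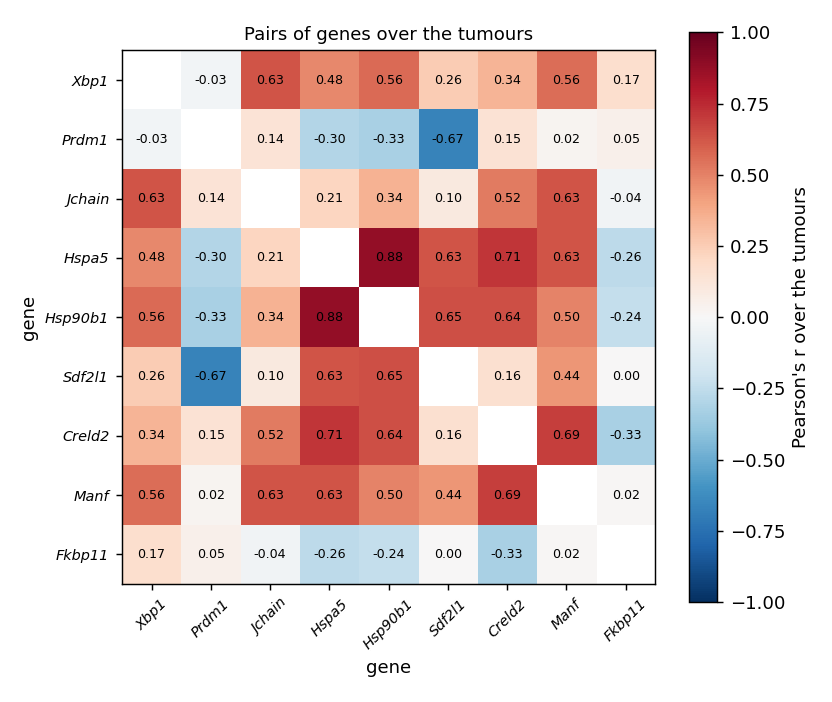
Pearson's r over the 16 tumours for each pair of the 9 measured genes (gene against gene, colour scale from -1 to 1). All pairs among Hspa5, Hsp90b1, Creld2, Sdf2l1 and Manf are positive, from 0.16 for Creld2 and Sdf2l1 to 0.88 for Hspa5 and Hsp90b1. Xbp1 and Jchain are also positive with each of these genes and with each other. Prdm1 with Sdf2l1 is the lowest at -0.67.

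Of the 36 pairs, 10 passed by Pearson's r. No such share was computed for pairs of other genes, so the count cannot be read as particular to the members. Besides those above, Hspa5 and Sdf2l1 gave r = 0.629, Hsp90b1 and Sdf2l1 r = 0.645 and Hspa5 and Manf r = 0.63 (permutation test, adjusted p = 0.0336 for each). None of these 3 pairs passed by rho (0.5, 0.55 and 0.524, adjusted p = 0.147, 0.123 and 0.128 by permutation test). Within groups their r was 0.673, 0.642 and 0.742, and without the 2 farthest tumours 0.483, 0.442 and 0.547. Sdf2l1 has no ERSE in its window, so the pairs that passed were not limited to genes with one. Xbp1 and Jchain gave r = 0.63 (permutation test, adjusted p = 0.0336), but rho = 0.547 did not pass (adjusted p = 0.123). Within groups their r was 0.647. Without the 2 tumours farthest from the median of Xbp1 it was 0.362, so the relation rests in part on those tumours. Jchain and Manf gave r = 0.631 and rho = 0.647 (permutation test, adjusted p = 0.0336 and 0.0491), within groups 0.57 and without the 2 farthest 0.573. Prdm1 and Sdf2l1 ran opposite, with r = -0.668 and rho = -0.679 (permutation test, adjusted p = 0.0336 and 0.0443), within groups -0.548 and without the 2 farthest -0.679. Xbp1 and Prdm1, the 2 regulators of the plasma-cell programme, gave r = -0.0287 (permutation test, adjusted p = 0.981). Fkbp11 passed with none of the other 8 members (r from -0.328 to 0.168).

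Of 7944 genes with an SD of at least 0.3 over the tumours, those most like each member were picked by Pearson's r over the 16 tumours, as a description. The mean of Hspa5, Hsp90b1, Sdf2l1, Manf and Creld2 was most like Pdia6 (r = 0.79), a protein disulphide isomerase of the ER, followed by Alg12 (0.76), a mannosyltransferase of N-glycan assembly, Tmed8 (0.751), Pycrl (0.708) and Zscan22 (0.707). Xbp1 was most like Tle1 (0.849), Nek6 (0.845), C630043F03Rik (0.822), Efnb1 (0.784) and Cdh13 (0.78). Prdm1 was most like Bcar3 (0.845), Myom1 (0.826), 6330509M05Rik (0.814), Ganc (0.813) and Gimap3 (0.805). Jchain was most like Mcemp1 (0.838), Ccl21b (0.781), Il1r2 (0.769), Sult1a1 (0.768) and Prg2 (0.765), and Fkbp11 most like Sh3bgr (0.841), Abhd14b (0.784), Slc50a1 (0.761), Slc16a7 (0.759) and Plpp2 (0.745). Tumours of a group share a genotype, so these correlations include differences between groups.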

How the data were processed

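Biotin-labelled cRNA of total RNA was hybridised to Affymetrix arrays, per the labels' protocols, and MAS5 is the tool in the submitters' processing notes, with no version. The deposited log2 ratios (base not stated in the sources used here, taken as 2) have a median of 0 per probe set over the 8 cell-line arrays and over the 16 tumours. No intensity or detection call is kept, so dim probe sets were not filtered. Precision is limited by the number of arrays.

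Names came from the platform annotation of 2016: 28898 had 1 symbol, 551 several and 15692 none, and 28689 of the first matched RefSeq (GRCm38.p6), with 0 symbols updated. For 7180 of the 17097 genes tested, which had several probe sets, the one with the largest SD was used. Comparisons used limma 3.58.1 (R 4.3.3), two-sided, without a variance trend, with Benjamini-Hochberg adjustment over all genes and a threshold of 0.05. Cells and tumours were fitted apart, except that the difference of both LAP effects came from 1 fit of the 4 groups without Blnk. The fit was tested on simulated data with normal noise, independent between genes and with the same spread in every group. That test does not cover spreads that differ between groups, as that of Prdm1 did in the tumours. Correlations used permutation tests (SciPy 1.17.1). Alternatives were other probe set choices, scalings, weights, a trend, a filter that kept genes with an SD above the median, only the groups compared, a replicate block and leaving out each sample.

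The members and lists were chosen with earlier results of these data known. Named from each list were up to 2 of the largest rises and falls past the threshold, and the 5 genes most like a member.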

Additional observations from a re-analysis of the deposited data

How the results depend on the processing

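The count of members that rose in BKO408 LAP cells was 6, and 5 to 6 when 1 array was left out. It was 3 among genes with an SD above the median, where only 6 members were tested. In the tumour pairs, where 0 members passed and 0 passed when 1 tumour was left out, array weights gave 1 in LAP B-ALL minus Blnk preB-ALL (with 21.2% of all genes) and 1 in LAP B-ALL minus LAP/Blnk preB-ALL (23.8%). For LAP B-ALL minus LAP/Blnk preB-ALL, fitting only the groups compared gave 2 (4.76% of all genes) and the replicate block gave 2 (15.7% of all genes, Prdm1 1.69, adjusted p = 0.00809, and Sdf2l1 -0.719, adjusted p = 0.0307, by limma). Whether replicate numbers pair the samples was not settled. Same-numbered BKO408 arrays correlated at -0.028 to 0.264 in their deviations, and same-numbered tumours at -0.64 to 0.383. No correlations between different numbers were computed to set beside these. In the cells the block left 6 members called. The other settings changed no count of members by more than 1.5 times, but the members called in the cells changed with the probe sets. With the mean of probe sets Xbp1 and Fkbp11 missed the threshold (adjusted p = 0.06 and 0.281 by limma). With probe sets chosen by name both missed it (adjusted p = 0.986 and 0.981 by limma), and Hsp90b1 passed (adjusted p = 0.0455 by limma).

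With probe sets chosen by name instead of by SD, the difference of BKO408 LAP minus BKO408 changed sign for Xbp1 (-0.00159), Fkbp11 (-0.00232), Ern1 (-0.0474), Sec63 (0.022) and Golgb1 (-0.132). With the mean of probe sets it did for Hspa8 (-0.0877). Of 2056 further values of single genes, 1920 kept their side of the threshold, 122 lost the call, 7 gained it, 6 are those above and 1 moved. Of the 1920, 105 changed sign, and so did the 1 that moved, all of them differences that did not pass. Counts over all genes moved more. LAP B-ALL minus LAP/Blnk preB-ALL gave 602 genes, 453 to 4063 under other settings (2680 with the replicate block) and 246 to 1980 without 1 tumour. LAP B-ALL minus Blnk preB-ALL gave 248 (0 to 3619, and 47 to 1835 without 1 tumour), LAP/Blnk preB-ALL minus LAP preB-ALL 406 (0 to 551, and 85 to 304), and the F test 453 (279 to 3685, and 200 to 1565). Cells gave 3820 (3273 to 3871, and 3080 to 3515 without 1 array), and the difference between the LAP effects 180 (136 to 820, and 75 to 691). LAP preB-ALL minus Blnk preB-ALL gave 14 (0 to 24, and 0 to 17), LAP/Blnk preB-ALL minus Blnk preB-ALL 3 (0 to 33, and 2 to 13), and LAP B-ALL minus LAP preB-ALL 0 (0 to 4, and 0 to 291). Scaling moved the split of higher and lower genes: LAP B-ALL minus Blnk preB-ALL had 82 higher and 166 lower as deposited, against 113 and 116 after quantile normalisation, and LAP B-ALL minus LAP/Blnk preB-ALL had 225 and 377, against 386 and 425. The cause was not tested.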
